A study of Rattus norvegicus with 12 samples.

Results

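Phlda1 and Vgf are 2 genes whose transcripts rise when cells are given a growth factor. They were followed in 12 libraries of rat chondrocytes with or without FGF18. They were picked by identifier, ENSRNOG00000004019 for Phlda1 and ENSRNOG00000001416 for Vgf, from the 32754 gene rows of the count tables, and they were picked because both were already known to be higher with FGF18 in the wild-type cells of these data. For that reason their difference in wild-type cells, and every contrast that shares those libraries, is given as a description without a p-value. The only test given for the pair is that of FGF18 against vehicle in the knockout cells. It is given for Phlda1 alone, since Vgf had too few reads there for a test to say anything.

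RCS is a chondrocyte line from a rat chondrosarcoma. The WT RCS line and one CRISPR clone lacking the FGF receptors FGFR3 and FGFR4 (FGFR3/4KO RCS) were left with vehicle, called untreated in the labels, or kept overnight with FGF18, which gave 4 groups of 3 biological replicates. All groups were grown in DMEM with adult bovine serum. The labels give the FGF18 dose as 50 µg/ml and the study's methods give it in ng/ml. The knockout is a single clone, so clone and genotype cannot be told apart.

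RNA was measured by QuantSeq, a method that sequences the 3′ ends of polyadenylated RNA, and the deposited values are reads per gene. The reads on genes ran from 373964 to 1196647 per library, and the lowest was FGFR3/4KO vehicle replicate 2. Levels are given as CPM, reads scaled to a common library size, as counts per 1e6 after TMM normalization. The share of all reads that was counted on genes was 12.5% to 14.5% in the WT RCS libraries and 16.96% to 18.8% in the FGFR3/4KO RCS libraries, and its part in differences between genotypes was not tested. The chondrocyte markers that carry a name here (Sox9, Col11a2, Chad, Epyc and Mia, 5 of 15 listed) summed to 3794 to 4586 CPM in every library. That sum hides shifts of single markers. Mia had 1766 to 2014 CPM in WT RCS with vehicle, 2348 to 2533 with FGF18 and 1438 to 1493 in the knockout with vehicle. Chad had 7.99 to 14.5 CPM in WT RCS with vehicle and 18.0 to 19.7 with FGF18. In the knockout it had 1.10 to 3.06 CPM with vehicle and 3.55 to 11.9 with FGF18. Those levels rest on 25, 57, 4 and 20 reads. Epyc had 7.25 to 9.52, 4.93 to 8.61, 0 to 6.58 and 2.64 to 7.37 CPM in the same order, from 20, 21, 7 and 16 reads. With vehicle, Col11a2 had 602 to 803 CPM in WT RCS and 838 to 1042 in the knockout. Sox9 had 1401 to 1510 and 1504 to 1986 CPM in the same order. Some markers of other cells also moved with FGF18 in WT RCS. The 4 named fibroblast markers of 7 listed summed to 17.4 to 21.99 CPM with vehicle and 24.9 to 43.1 CPM with FGF18 in WT RCS, and to 17.1 to 29.1 CPM over the knockout libraries. Among them Col1a1 went from 3 to 33 reads and Pdgfra from 3 to 24 reads over the WT RCS groups. The other named fibroblast markers did not rise with FGF18 in WT RCS. Thy1 went from 41 to 35 reads (log2 fold change -0.57, SE 0.37, edgeR FDR 0.282) and Lum from 2 to 1. The 2 named haematopoietic markers of 5 listed (Cytip and Rcsd1) summed to 7.25 to 8.99 CPM with vehicle, 13.4 to 16.4 CPM with FGF18 and 4.61 to 9.75 CPM in the knockout. The 2 named osteoblast markers of 7 listed (Mepe and Phospho1) summed to at most 2.72 CPM in WT RCS and 2.19 to 11.5 CPM in the knockout. The higher sum in the knockout came from Phospho1. With vehicle and with FGF18, Phospho1 had 1 and 1 reads in WT RCS and 5 and 26 in the knockout. Mepe had 2 and 4 reads in WT RCS and 0 and 1 in the knockout. None of these named markers was at 0 in all libraries, and their part in the FGF18 differences below was not tested. The identifiers of Fgfr3 and Fgfr4 were not paired with names, and both genes were not analysed here.

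FGF18 is a ligand of the cartilage. It binds FGF receptors on chondrocytes, which are receptor tyrosine kinases that signal through RAS, RAF and MEK to the kinase ERK, and ERK then acts on transcription factors that switch on early response genes. FGFR3 is best known in growth plate cartilage as a brake on chondrocyte proliferation. Phlda1, also called TDAG51, encodes an intracellular protein with a pleckstrin homology-like domain, and its transcript rises with many growth factors. Vgf was named as a gene inducible by nerve growth factor and encodes a secreted precursor of neuropeptides, best known from neurons and endocrine cells. Its promoter is a textbook example of one with a cAMP response element, the site that CREB binds.

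The DNA just upstream of each start site differs between the pair, though some motifs occur in both. Each window below is the 250 bases before the RefSeq start site in the GRCr8 build, written 5′ to 3′ on the gene's own strand. Phlda1 lies on the plus strand and its window is chr7:48853440-48853689. Capitals mark GC boxes (GGGCGG) and EGR sites (GCGNGGGCG) on either strand, where the motifs of EGR and SP proteins are found. Vgf lies on the minus strand and its window is chr12:25277021-25277270. Capitals there mark, in order, the cAMP response element (TGACGTCA), the extended E box (CACGTGAC) and the TATA box (TATAAA, which overlaps its own match on the other strand). The GC boxes and the EGR site of Vgf are left in lower case.
Phlda1: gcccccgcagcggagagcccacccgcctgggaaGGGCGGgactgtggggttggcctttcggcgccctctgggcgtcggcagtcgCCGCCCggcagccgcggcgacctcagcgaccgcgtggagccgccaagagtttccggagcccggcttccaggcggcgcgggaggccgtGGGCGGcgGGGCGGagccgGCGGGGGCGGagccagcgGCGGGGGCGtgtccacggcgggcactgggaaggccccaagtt
Vgf: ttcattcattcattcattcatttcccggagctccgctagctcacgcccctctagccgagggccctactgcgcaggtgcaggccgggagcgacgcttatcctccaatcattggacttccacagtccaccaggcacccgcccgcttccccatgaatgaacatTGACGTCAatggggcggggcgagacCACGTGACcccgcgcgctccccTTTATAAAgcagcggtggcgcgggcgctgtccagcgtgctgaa

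The motifs were chosen with both sequences in view, and a match describes letters, not binding. The Phlda1 window was 78.8% G or C, above 98.5% of the 33469 windows of this length in the table, whose median was 51.2%. It held 5 GC boxes, a motif found in 30.5% of all windows, and 2 EGR sites, found in 4.29%. One of those EGR sites overlaps a GC box. The Phlda1 window also held 1 ETS core (CCGGAA, in 12.6% of windows) and no match to the cAMP response element, the E box (CACGTG), the AP-1 site (TGANTCA), the serum response element, the CCAAT box or the TATA box.

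The Vgf window was 61.6% G or C. Its cAMP response element stood at positions -90 to -83 from the start site, and 1.59% of all windows hold that motif. The extended E box stood at positions -65 to -58, with the motif in 1.63% of windows, and the TATA box on the gene's strand at positions -41 to -36, with the motif in 12.9%. Both the cAMP response element and the extended E box were present in 19 windows, or 0.0568% of all. The Vgf window also had 2 CCAAT boxes, 2 GC boxes and 1 EGR site. RefSeq lists 5 Vgf transcripts and places this start inside the gene's span (chr12:25274004-25281803), so the window belongs to only some of them. Phlda1 has 1 transcript there (chr7:48853690-48855894). No other listed gene overlaps either gene.

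**Figure D1:**
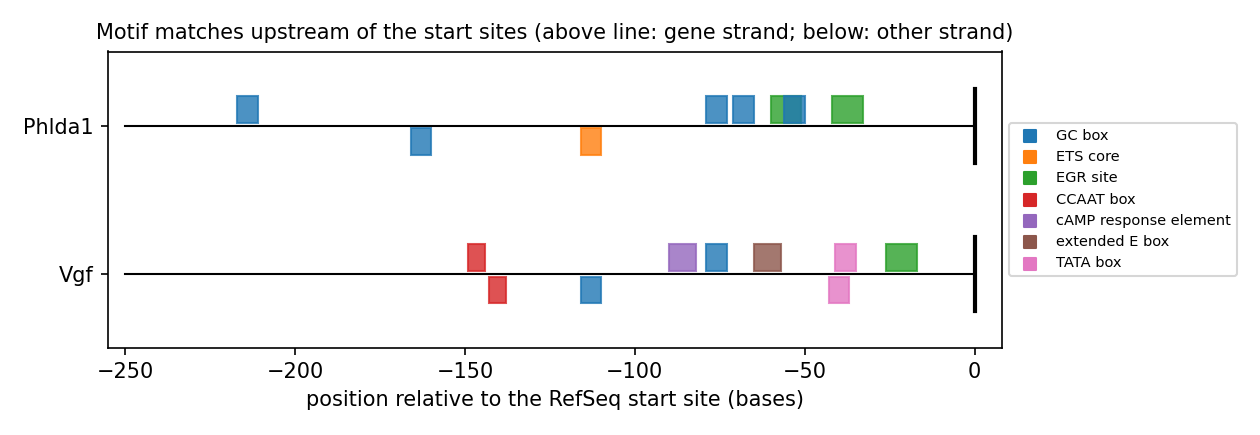
Positions of motif matches in the 250 bases before the start sites of Phlda1 and Vgf. The horizontal axis is the distance from the RefSeq start site in bases, boxes above each line are matches on the gene's strand and boxes below are on the other strand. GC boxes and EGR sites recur along Phlda1, while Vgf carries the cAMP response element at -90 to -83 and the extended E box at -65 to -58. Vgf also has 2 GC boxes and 1 EGR site.

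Phlda1 was present in every library. In WT RCS with vehicle it had 97, 87 and 136 reads, which is 140.6, 118.3 and 135.9 CPM (mean 131.6 ± 11.7 SD, n = 3). In WT RCS with FGF18 it had 1446, 1220 and 991 reads, or 1185, 1167 and 1221 CPM (1191 ± 27.5 SD, n = 3). Every FGF18 library thus lay far above every vehicle library, and the mean was 9.05 times higher, a difference of 1060 CPM. The fitted log2 fold change was 3.18 with an SE of 0.15 (95% interval 2.87 to 3.48), rank 36 from the top among the 7378 genes tested. This contrast is the one that picked the gene. Among all tested genes, 12.9% passed an FDR of 0.05 as higher in it, and 20.2% had all FGF18 libraries above all vehicle libraries.

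In FGFR3/4KO RCS with vehicle Phlda1 had 79, 37 and 111 reads, or 121.0, 104.8 and 121.6 CPM (115.8 ± 9.55 SD, n = 3). In FGFR3/4KO RCS with FGF18 it had 126, 136 and 206 reads, or 166.1, 120.5 and 189.8 CPM (158.8 ± 35.2 SD, n = 3). Replicates 1 and 3 with FGF18 stood above all vehicle libraries, while replicate 2 lay below 2 of the 3, so the groups overlapped. All FGF18 libraries were above all vehicle libraries for 6.38% of the tested genes, and Phlda1 was higher with FGF18 in 7 of the 9 pairs of libraries.

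The ratio of the means in the knockout was 1.37, a difference of 43.0 CPM, and the fitted log2 fold change was 0.43 with an SE of 0.16 (95% interval 0.10 to 0.77, or 1.07-fold to 1.71-fold). By edgeR's quasi-likelihood test its unadjusted p was 0.0138 and its FDR over all 7378 genes was 0.752. An exact two-sided permutation test of the 6 libraries gave p = 0.3, where 0.1 is the smallest that 3 against 3 allows. No tested gene passed the FDR threshold here (0.0%), 6.48% had an unadjusted p below 0.05, and 3.19% had one as higher. Phlda1 was therefore not called as changed by FGF18 without the 2 receptors, while the interval of its fold still reached 1.71. Without FGF18 replicate 2 the log2 fold change was 0.61 and without FGF18 replicate 3 it was 0.30, with an FDR of 0.299 and 0.696.

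**Figure D2:**
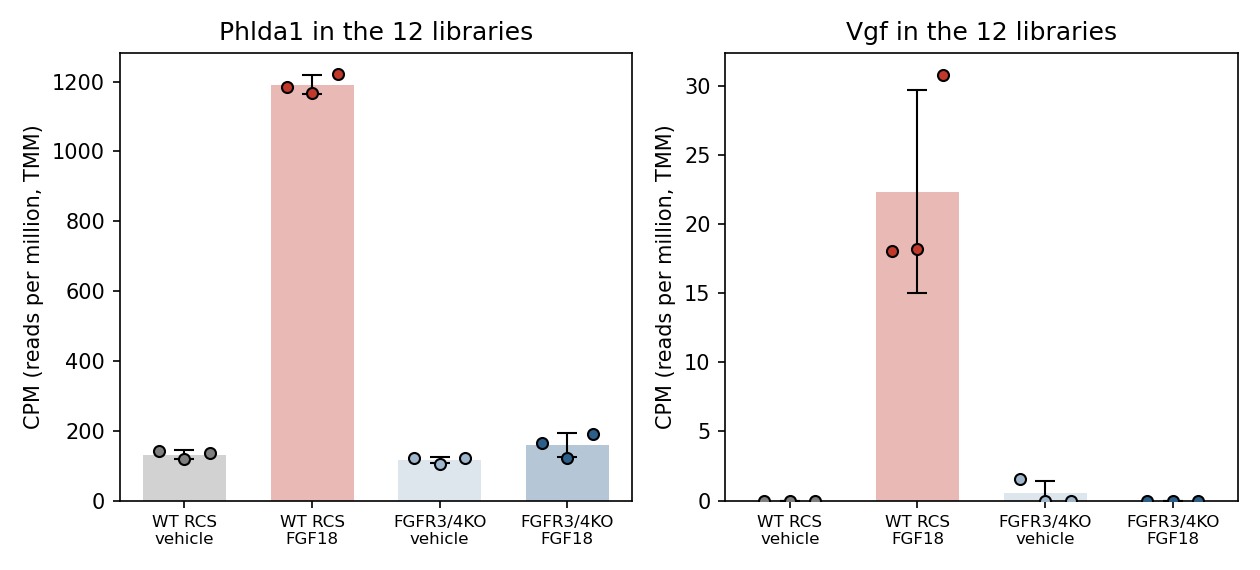
Levels of Phlda1 (left) and Vgf (right) in CPM on the vertical axes, by group. Points are the 12 libraries, bars are group means and error bars are 1 SD (n = 3). Phlda1 sits between 1167 and 1221 CPM in WT RCS with FGF18 and at or below 189.8 CPM elsewhere, and Vgf has reads in all 3 WT RCS libraries with FGF18 and in only 1 other library.

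Ordered by mean, Phlda1 was highest in WT RCS with FGF18, then in FGFR3/4KO RCS with FGF18, WT RCS with vehicle and FGFR3/4KO RCS with vehicle. The first stands apart. Each of the other 3 neighbours overlaps the next, with 120.5 to 189.8, 118.3 to 140.6 and 104.8 to 121.6 CPM. With vehicle, FGFR3/4KO RCS differed from WT RCS by a log2 fold change of -0.17 (SE 0.17), so the gene's level without added ligand differed by about 1 SE between the genotypes. With FGF18 the same comparison gave -2.91 (SE 0.15). The FGF18 effect in FGFR3/4KO RCS minus that in WT RCS was -2.74 (SE 0.22) on the log2 scale. These 3 contrasts share libraries with the one that picked the gene and are given without a test. In all tested genes, 4.96% passed an FDR of 0.05 as having a lower effect in the knockout.

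**Figure D3:**
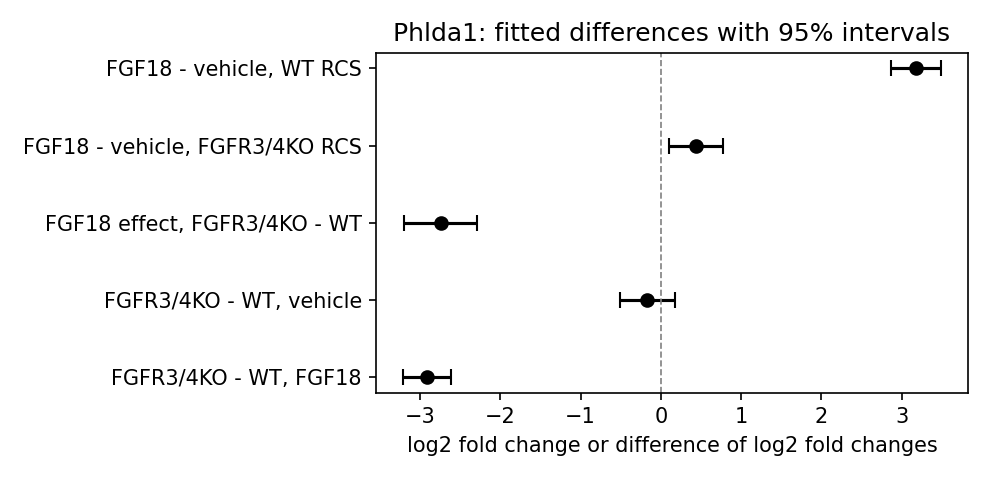
Fitted Phlda1 differences on the log2 scale (horizontal axis) with 95% intervals from edgeR, 1 row per contrast. The interval in FGFR3/4KO RCS runs from 0.10 to 0.77 and that in WT RCS from 2.87 to 3.48.

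The Phlda1 replicates spread no more than counting error alone would give, except in the knockout with FGF18. The SD was 2.31% of the mean in WT RCS with FGF18, where counting error alone would give 2.86%. It was 8.93% with vehicle (counting error 9.68%) and 8.24% in the knockout with vehicle (counting error 11.5%). In the knockout with FGF18 it reached 22.2%, above the 8.01% of counting error. Such counting errors cover sampling of reads only, since reads that carry no molecular identifier can be copies of one molecule.

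Vgf had an on and off pattern. In WT RCS with vehicle it had 0 reads in each of the 3 libraries. With FGF18 it had 22, 19 and 25 reads, or 18.0, 18.2 and 30.8 CPM (22.3 ± 7.33 SD, n = 3). In FGFR3/4KO RCS with vehicle it had 1, 0 and 0 reads, and with FGF18 it had 0 reads in all 3. The single read in knockout replicate 1 is 1.53 CPM with an exact 95% interval of 0.0388 to 8.54. The secreted precursor's transcript was thus detected in every WT RCS library with FGF18, and in 1 of the other 9 libraries by 1 read.

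With 3 reads over a group taken as the limit for a count of 0, the limit of the Vgf level was 1.24 CPM in WT RCS with vehicle. It was 1.01 CPM in FGFR3/4KO RCS with FGF18. The pooled level in WT RCS with FGF18 was 21.5 CPM from 66 reads (95% interval 16.6 to 27.3). That pooled level was 17.3 times the limit in WT RCS with vehicle, and 21.3 times the limit in FGFR3/4KO RCS with FGF18. These ratios take the pooled level itself, not the low end of its interval, so they are not strict lower bounds. Exact 95% intervals of the 0 counts reached above these limits, to 1.52 CPM in WT RCS with vehicle and 1.24 CPM in FGFR3/4KO RCS with FGF18. The ratios scale with the reads behind the 0. The first was 10.2-fold without WT RCS vehicle replicate 3, and the second was 13.2-fold and 13.5-fold without FGFR3/4KO RCS FGF18 replicates 2 and 3. Against FGFR3/4KO RCS with vehicle, which had the 1 read, the ratio was 41.1 with a counting interval of 7.13 to 1650.

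In FGFR3/4KO RCS the FGF18 contrast compares 0 reads with 1 read for Vgf, so neither a fold nor a test is given. No response of Vgf in the knockout was detected at this depth. The 0 reads with FGF18 would still allow 1.01 CPM by the limit of 3 reads, or 1.24 CPM by the exact interval. The SD of Vgf in WT RCS with FGF18 was 32.8% of its mean, where counting error alone would give 21.3%. Replicate 3 was the highest with 30.8 CPM and the other two lay within 1 CPM of each other.

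A count made after these values were seen asked how many tested genes had at most 1 read over the 9 libraries outside WT RCS with FGF18 and at least 10 reads in each of the 3 libraries in it. Vgf was the 1 gene of 7378 (0.0136%). Cut-offs set with its reads in view made its own passing certain, so the count is a description only. Vgf passed the filter on low counts through that group alone. Phlda1, expressed in every group, passed the filter in all.

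Vgf is known from neurons, so the neuronal and neuroendocrine markers stand beside it. Of 9 listed, 5 carried a name (Snap25, Syt1, Neurod1, Uchl1 and Gap43) and none was at 0 in all libraries. They summed to 143 to 167 CPM in WT RCS with vehicle, 224 to 275 CPM with FGF18, and 102 to 133 CPM over the knockout libraries. Most of this was Uchl1, a ubiquitin hydrolase abundant in neurons, at 131.4 ± 14.3 CPM (SD, n = 3) with vehicle and 200.4 ± 8.995 with FGF18 in WT RCS. The others did not move alike. From vehicle to FGF18 in WT RCS, Snap25 went from 1 to 20 reads and Neurod1 from 0 to 4. Syt1 went from 39 to 94 reads (log2 fold change 0.92, SE 0.40, edgeR FDR 0.0926) and Gap43 from 22 to 23. Reads on genes in those groups totalled 2315355 with vehicle and 3107507 with FGF18. The part of these markers in the Vgf difference was not tested.

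The other genes of the pathway were taken from 6 lists of 155 genes, of which 70 had a name in the count tables and 44 passed the filter. The lists were chosen with earlier results of these data known, so the FDRs of list genes describe these libraries and are not independent tests. In WT RCS 8 of the 44 rose with FGF18 and 5 fell at an FDR of 0.05, beside 12.9% and 12.8% of all tested genes. Their median log2 fold change was 0.02, as was that of all tested genes. In FGFR3/4KO RCS none of the 44 passed, and 2 had an unadjusted p below 0.05. The FGF18 effect was lower in the knockout for 4 of them and higher for 1, beside 4.96% and 5.91% of all tested genes.

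Of the transcription factors that answer growth factors and ERK, 3 of 7 tested genes rose in WT RCS and none fell. Etv5, an ETS factor of the group known to be induced by FGF and ERK, went from 10.9 ± 2.49 to 70.6 ± 12.5 CPM (SD, n = 3), a log2 fold change of 2.64 (SE 0.29). It differed from Phlda1 in the cells without ligand. With vehicle Etv5 was at 56.1 ± 3.18 CPM in FGFR3/4KO RCS, a log2 fold change of 2.33 (SE 0.31) over WT RCS that passed the edgeR test (FDR 6.8e-06), against -0.17 for Phlda1. With FGF18 the knockout had 97.1 ± 26.03 CPM of Etv5 (log2 fold change 0.78, SE 0.22, FDR 0.622), and its FGF18 effect minus that in WT RCS was -1.86 on the log2 scale (edgeR FDR 0.00126). Atf3, a stress-induced factor of the ATF and CREB family, rose by a log2 fold change of 1.43 (SE 0.33), and Elk3, an ETS factor, by 0.64 (SE 0.22). Ets2 had 0.57 (SE 0.23) in WT RCS, which did not pass, and -0.73 (SE 0.26) in the knockout. The knockout minus WT difference of its effects was -1.30 on the log2 scale (edgeR FDR 0.0139, and 0.0513 without WT RCS vehicle replicate 3).

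On the list called feedback inhibitors of growth factor signalling, which also holds antiproliferative genes, Btg1 rose and Grb10 fell among 8 tested. Btg1, an antiproliferative gene, went from 169.3 ± 13.7 to 518.5 ± 32.6 CPM in WT RCS (log2 fold change 1.61, SE 0.15) and the knockout minus WT difference of its effects was -1.37 on the log2 scale (edgeR FDR 6.02e-05). Grb10, an adaptor that binds receptor tyrosine kinases, had -0.97 (SE 0.34). Of the 4 tested genes from receptor to ERK none passed. Among CREB regulators and the JNK and p38 kinases 1 of 6 fell, the p38 kinase Mapk14, with -0.75 (SE 0.15) in WT RCS and 0.01 (SE 0.15) in the knockout, and that difference passed (edgeR FDR 0.0151).

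In the regulated secretory pathway, which Vgf peptides use in endocrine cells, Uchl1 rose (0.61, SE 0.15, log2 fold change in WT RCS) and Cpd, a carboxypeptidase that trims peptides, fell (-0.62, SE 0.22) among 5 tested. In the p53 and stress response list 3 of 14 rose and 2 fell. Gadd45a, a growth arrest gene, was at 43.1 ± 8.01 CPM with vehicle and 135.2 ± 2.89 with FGF18 in WT RCS, a log2 fold change of 1.67 (SE 0.20), and the knockout minus WT difference of its effects was -1.42 (edgeR FDR 0.00372). Tnfrsf12a, the receptor for TWEAK, rose by 0.90 (SE 0.27) and Eif2ak4, a kinase of the amino acid response, by 0.66 (SE 0.18). Cdkn1a, the cell cycle inhibitor p21, had -0.55 (SE 0.14) and Sesn1 -0.71 (SE 0.26). The calls of 6 of these genes did not hold in every analysis. Of 18 alternatives, including 12 that leave out a library, Sesn1 lost its call in 9, Cpd in 7, Elk3 and Grb10 in 6 each, Tnfrsf12a in 3 and Eif2ak4 in 1. With DESeq2 the adjusted p was 0.077 for Elk3, 0.0726 for Cpd, 0.0834 for Grb10 and 0.117 for Sesn1. By edgeR, the FDR rose to 0.14 for Elk3 and 0.128 for Sesn1 without vehicle replicate 3, to 0.103 for Grb10 and 0.0501 for Eif2ak4 without FGF18 replicate 1, and to 0.179 for Cpd and 0.106 for Tnfrsf12a without FGF18 replicate 2. With vehicle, 1 of the 44 list genes was higher in FGFR3/4KO RCS (Etv5) and 2 were lower (Uchl1 and Sesn1), beside 8.0% and 6.07% of all tested genes.

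**Figure D4:**
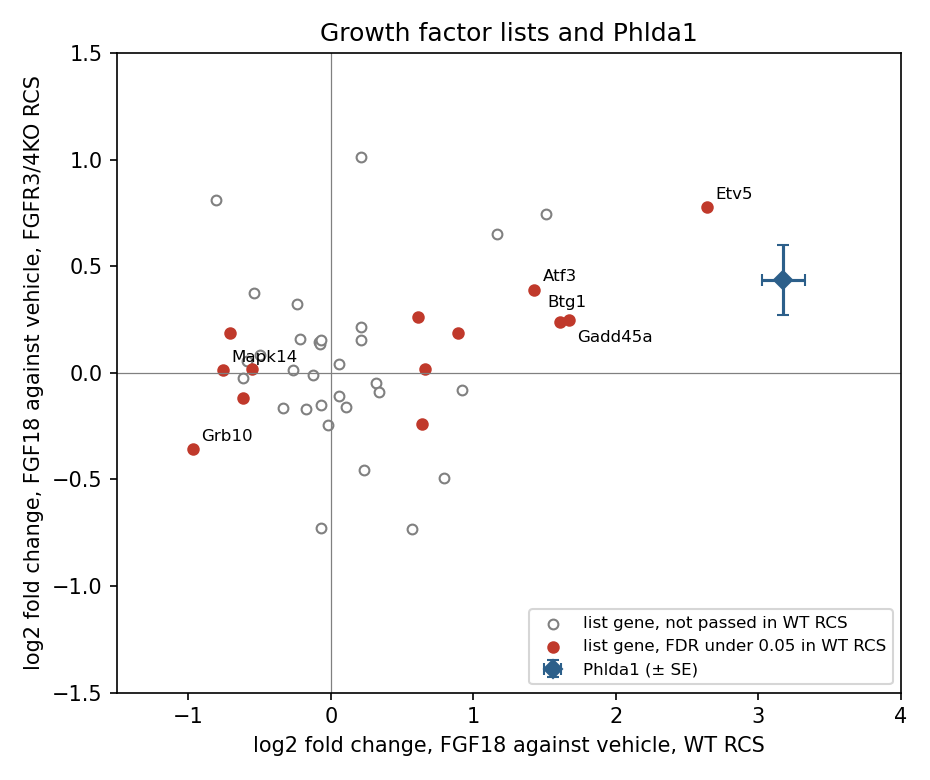
Log2 fold change with FGF18 in WT RCS (horizontal) against that in FGFR3/4KO RCS (vertical) for the 44 list genes and Phlda1, whose bars are 1 SE. Filled points passed an FDR of 0.05 in WT RCS, and Phlda1 lies farther right, at 3.18, than any list gene, the nearest being Etv5 at 2.64. Vgf is not plotted, because its WT RCS vehicle libraries had 0 reads and its knockout groups had 1 and 0 reads.

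The genes with a pattern most like the pair were sought by Pearson's r over the 12 libraries on log2 CPM among 1416 named and tested genes. The libraries fall into those with and without the WT FGF18 response, so r mostly measures that split and is a description. Phlda1 was most like Cdkn2b (r = 0.97), Flcn (0.96), Flot1 (0.96), Gadd45a (0.96) and Btg1 (0.94). Vgf was most like Cdkn2b (0.98), Flot1 (0.97), Scpep1 (0.97), Flcn (0.96) and Carhsp1 (0.93). Phlda1 and Vgf had r = 0.97 with each other. In the 9 libraries without WT RCS FGF18 it was -0.19, and Phlda1 had 0.04 with Cdkn2b and 0.51 with Flcn.

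Cdkn2b, the cell cycle inhibitor p15, headed both lists. It had 28.5 ± 6.52 CPM in WT RCS with vehicle, 373.8 ± 99.9 with FGF18, and 34.1 ± 8.13 and 35.8 ± 6.39 in FGFR3/4KO RCS without and with FGF18 (SD, n = 3). Flcn, folliculin, had 11.5 ± 0.564, 40.3 ± 0.941, 13.2 ± 4.27 and 13.4 ± 2.61 CPM in the same order. Flot1, flotillin, had 14.7 ± 2.38, 112.5 ± 21.2, 10.9 ± 6.63 and 11.5 ± 0.407 CPM. These genes were chosen for their likeness over the same libraries, so no test is given. Like Phlda1 they were high in 1 group and near their vehicle level in the other 3.

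**Figure D5:**
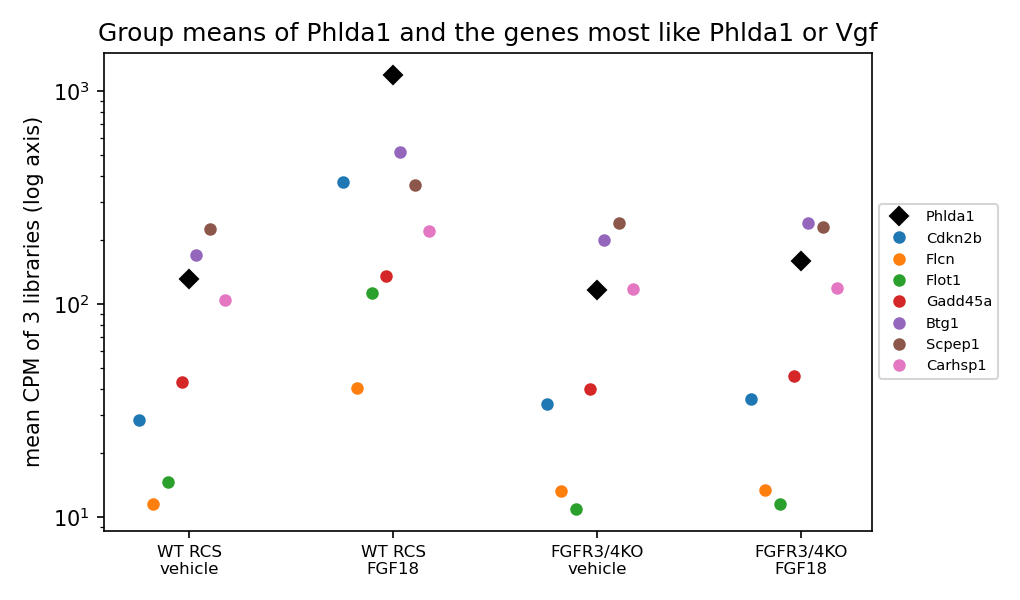
Group means in CPM (log axis, 3 libraries each) of Phlda1 and the genes most like Phlda1 or Vgf. Phlda1 and the alike genes are highest in WT RCS with FGF18, with 1191 CPM of Phlda1 there.

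Neighbouring genes were taken from the nearest 3 on each side that carry a name in the count tables, by their places in GRCr8. Vgf lies in a dense stretch. Ap1s1, a subunit of a clathrin adaptor, lies 1.52 kb away and had a log2 fold change of 0.69 (SE 0.17, FDR 0.0037 by edgeR) with FGF18 in WT RCS. Gigyf1, on the same side, had 0.42 (SE 0.54).

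On the other side of Vgf, Plod3, a collagen-modifying enzyme 31.3 kb away, had 0.41 (SE 0.15, FDR 0.0395), which did not pass in 14 of 18 alternative analyses. Znhit1 had -0.10 (SE 0.15), and Cldn15 had at most 1 read in a group. Phlda1 is more isolated among named genes, with the nearest at 506 kb (Krr1) and 534 kb (Zdhhc17). None of its 5 tested neighbours passed in WT RCS. Their log2 fold changes ran from -0.68 for Krr1 to 0.92 for Syt1, against 3.18 for Phlda1. Csrp2, a LIM domain protein, had -0.61 (SE 0.24) in WT RCS and 0.50 (SE 0.21) in the knockout, and that difference passed (edgeR FDR 0.0230, 0.0522 with DESeq2, and up to 0.0795 without FGFR3/4KO RCS vehicle replicate 1). Kcnc2, a potassium channel gene 730 kb away, was too low to be tested, with 1, 10, 0 and 0 reads over WT RCS vehicle and FGF18 and FGFR3/4KO RCS vehicle and FGF18.

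Motifs of the pair's promoters were also looked for in other genes. Over all 7378 tested genes, 12.9% rose and 12.8% fell with FGF18 in WT RCS. Among 1119 other named and tested genes with a promoter window, 108 rose (9.65%) and 149 fell. Their median log2 fold change was -0.02. Of the 41 with a cAMP response element, the motif of Vgf, 2 rose and 8 fell, with a median of -0.07. Of the 50 with the extended E box 7 rose and 3 fell (median 0.10). Of the 104 with an EGR site, which Phlda1 and Vgf both have, 15 rose and 17 fell (median 0.07), and of the 718 with a GC box 74 rose and 106 fell (median -0.01). In FGFR3/4KO RCS none of the 1119 passed. These are counts without a test, since the motifs were chosen after the sequences of the pair were known.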

How the data were processed

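Total RNA of 12 cultures was made into QuantSeq 3′ libraries. Adapters were removed by the authors with Trim Galore, STAR placed the reads on rn6, and htseq-count gave the raw counts per gene that they deposited, without normalization. Tool versions are not given in the sources used here. The methods name a human gene model, while the identifiers are of rat genes. Between 81.2% and 87.5% of the reads in each deposited table were not counted on a gene and were left out.

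Counts were analysed with edgeR 4.0.16 in R 4.3.3. filterByExpr (minimum count 10, minimum total 15) kept 7378 genes. Libraries were scaled by TMM, and all 12 entered one quasi-likelihood model with a mean per group. FDR is the Benjamini-Hochberg adjusted p over all 7378 genes, with a threshold of 0.05. SEs are log2 fold changes divided by the square root of F. Correlations used log2 CPM with a prior count of 2. Intervals of counts are exact 95% intervals, binomial for single libraries and Poisson for pooled groups. The interval of the Vgf ratio against FGFR3/4KO RCS with vehicle is an exact binomial one. A count of 0 was given a limit of 3 reads. All of these cover counting error only. The fit was tested on simulated data.

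Names came from the identifier and symbol columns of a supplementary table of the study (1998 rows, 1418 tested). Promoter windows and gene places came from RefSeq tables of GRCr8, matched by symbol, with both members found. Files and reference differ in build, so no rn6 coordinates are given. The pair and the lists were chosen with earlier results of these data known. Genes named in the text are the pair, list genes that passed in WT RCS or in the difference of effects (up to 4 per list and direction), the 5 genes most like each member and the neighbours, of which 1 is not reported here. Alternatives were DESeq2 1.42.0, upper-quartile scaling, no filter, a filter of 1 CPM in 3 libraries, a replicate block, only the groups compared, and each library left out. Scaling by total reads was added after the data were examined.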

Additional observations from a re-analysis of the deposited data

Results flagged for a closer look

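The FGF18 effect differed between the genotypes for several genes. Phlda1 had a difference of -2.74 on the log2 scale (effect in FGFR3/4KO RCS minus effect in WT RCS, SE 0.22), given without a test because the gene was picked for its response in WT RCS.

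Among the list genes and neighbours reported here, 6 passed an edgeR test of that difference at an FDR of 0.05. The lists were chosen with earlier results of these data known, so the FDRs of list genes are descriptive. Gadd45a and Btg1 were also among the genes most like Phlda1 over the same libraries. The difference was -1.86 for Etv5 (SE 0.38, FDR 0.00126), -1.37 for Btg1 (SE 0.21, FDR 6.02e-05) and -1.42 for Gadd45a (SE 0.32, FDR 0.00372). It was -1.30 for Ets2 (SE 0.35, FDR 0.0139). It was positive, at 0.77, for Mapk14 (SE 0.21, FDR 0.0151) and at 1.12 for Csrp2 (SE 0.32, FDR 0.0230). Leaving out 1 library moved the FDR of Csrp2 above 0.05 in 3 of 12 cases, and that of Ets2 in 1, and with DESeq2 the adjusted p of Csrp2 was 0.0522. Groups of 3 libraries are too small to single out one library as apart.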

How the results depend on the processing

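For Phlda1 in FGFR3/4KO RCS the log2 fold change was 0.42 to 0.48 with an FDR of 0.559 to 0.998 over the other analyses, and 0.30 to 0.61 with an FDR of 0.299 to 0.975 when 1 library was left out, so it stayed above the threshold in all of them. In WT RCS its log2 fold change was 3.16 to 3.19 over those analyses and 3.10 to 3.22 without 1 library. Scaling by total reads and by the other size factors gave a log2 ratio of Phlda1 means of 3.09 to 3.18 in WT RCS and 0.43 to 0.46 in the knockout. The ratio of the pooled Vgf level to the limit in WT RCS with vehicle was 10.2 to 19.2 without 1 library. That against FGFR3/4KO RCS with FGF18 was 13.2 to 23.5. Both rose to their highest values without WT RCS FGF18 replicate 1.

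The number of genes called in FGFR3/4KO RCS went from 0 to 20 with no filter, to 1 with the filter of 1 CPM and to 2 with only the groups compared, and ran from 0 to 1 without 1 library. The 2 differing filters change the genes tested, and for the others the cause was not tested. Genes called between the genotypes with vehicle ran from 679 to 1211 without 1 library. List genes that fell in WT RCS numbered 2 with DESeq2 and 2 to 6 without 1 library. List genes with a higher effect in the knockout numbered 2 with the filter of 1 CPM and 1 to 2 without 1 library. List genes lower in the knockout with vehicle numbered 4 with upper-quartile scaling and 4 with only the groups compared, and 2 to 5 without 1 library, and those higher numbered 1 to 2. The log2 fold change of Gigyf1 ran from -0.29 to 0.91 without 1 library, negative without WT RCS FGF18 replicate 2, and was not called. For these the cause was not tested.

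The labels number replicates 1 to 3 in each group. Libraries with the same number did not deviate together (mean r -0.03 over 18 pairs, from -0.21 to 0.05, against 0.02 over 36 pairs with different numbers), so the number was not taken as a pairing. With a replicate block the Phlda1 log2 fold change in the knockout was 0.45 with an FDR of 0.821, and 1760 genes were called for FGF18 in WT RCS, 674 for the difference of effects and 0 for the knockout. With 3 libraries a group and 373964 to 1196647 reads, the 0 reads of Vgf in the knockout with FGF18 do not exclude a level below 1.01 CPM.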
